A study of Mus musculus with 7 samples.

Results

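*Sox1*, *Sox2*, *Pax6*, *Egr2*, *Neurog2* and *Olig2* are 6 genes for transcription factors of the hindbrain and neural tube, examined here for open chromatin in cells sorted from the heart-forming region of mouse embryos. They were chosen by name, as 6 of the 21000 coding genes with a curated RefSeq transcript, and every deposited peak from 50 kb upstream to 50 kb downstream of each gene body was taken. Between 110 and 136 deposited peaks per library fell in these windows. Peaks with a q-value of at most 0.01 in any library were joined into shared intervals, called elements, of which 120 of the 210347 in the genome lay at the 6 loci.

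The neural tube gives rise to the brain and spinal cord, and its front part is divided into forebrain, midbrain and a segmented hindbrain. *Sox1* and *Sox2* encode related HMG-box factors that keep neural cells in a progenitor state, and *Sox2* also acts in foregut endoderm and in pluripotent cells. *Pax6* patterns progenitors along the dorsoventral axis of the neural tube and is needed for the eye. *Egr2*, also called Krox20, is a zinc-finger gene of alternating hindbrain segments. *Neurog2* is a proneural basic helix-loop-helix gene that starts neuronal differentiation, and *Olig2* marks motor neuron and oligodendrocyte progenitors. None of the 6 is a standard marker of the second heart field (SHF), the progenitors that add to the poles of the heart tube.

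ATAC-seq, in which a transposase inserts sequencing adapters into accessible DNA, was performed on 7 libraries of sorted cells from the SHF region of E9.5 embryos. GFP+ cells (replicates 3 and 4) and GFP- cells (replicates 1 and 2) came from Hoxb1GFP embryos, in which GFP stands in the *Hoxb1* locus and marks cells of the posterior SHF. The paper's Methods designate that allele as *Hoxb1*-, so *Hoxb1* function may be reduced in these embryos. The zygosity of that allele is not given in the sources used here. Tomato+ cells (replicates 6 and 8) and Tomato- cells (replicate 7) came from Mef2c-Cre;RosatdT embryos, in which Cre under an anterior heart field enhancer of *Mef2c* switches on a lasting red label in the cells that expressed it and in their progeny. No treatment was applied, embryos were pooled before sorting, and the libraries therefore do not stand for single animals. Sort-negative cells are whatever else the dissection held, and their makeup is not given. Each line was sorted on its own reporter alone, so GFP- cells may include anterior SHF cells and Tomato- cells posterior ones. Heart field cells may therefore be present in both positive and sort-negative libraries. *Hoxb1* is also a gene of the hindbrain, so the GFP reporter is not restricted to heart progenitors in the embryo as a whole. The run name stored with the list of Tomato+ replicate 6 contains the letters YFP, while its label places it in the Tomato line, and values without it are given where a result turns on it.

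The lists held 187914 to 291287 peaks, of which 64306 to 77746 had a q-value of at most 0.01. Because fold enrichment, the ratio of read coverage at a peak summit to the local background, is set within a library, elements were compared by their position in each list, counted from the peak with the highest fold enrichment. Lists were read to the length of the shortest, 187914 peaks, and an element without a peak there is called not placed. The 4 positive libraries (GFP+ and Tomato+) were compared with the 3 sort-negative ones. With 4 against 3 libraries the smallest two-sided p of the exact permutation test is 0.0571, so no single element could pass 0.05, and adjusted by Benjamini-Hochberg over all 210347 elements or all 15060 coding promoters the smallest value was 1. Promoters of the heart field list (*Isl1*, *Nkx2-5*, *Tbx1*, *Tbx5*, *Gata4*, *Hand2*, *Mef2c*, *Fgf10*, *Osr1*, *Foxf1*) held an element for 10 of 10 genes, 3 of them with a peak in all 7 libraries (q at most 0.01). Of the 21000 coding genes, 15060 held an element, and 53.1% had such a peak in all 7 libraries. The same counts were 5 of 5 and 1 for neural crest markers, 3 of 5 and 0 for blood, 3 of 5 and 1 for endothelium, and 4 of 5 and 0 for endoderm, and no promoter of these lists had positive and sort-negative libraries that did not overlap (2.52% of coding promoters with the positive and 2.24% with the sort-negative libraries above). An accessible promoter does not show that a gene is transcribed, and peaks of bulk cells cannot tell a few cells with a strongly open site from many with a weakly open one.

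The sequences at the elements on which the results turn are shown first, read from GRCm38 on the plus strand, the strand of all 6 genes, around the summit of the best placed peak. Capitals mark CpG dinucleotides, the dinucleotide at which vertebrate DNA is methylated and which is dense in CpG islands. UTR bases were left out. The first is the stretch directly upstream of the *Sox2* transcription start site (TSS), chr3:34649798-34649994, which was placed nearer the top in sort-negative cells.
*Sox2* promoter: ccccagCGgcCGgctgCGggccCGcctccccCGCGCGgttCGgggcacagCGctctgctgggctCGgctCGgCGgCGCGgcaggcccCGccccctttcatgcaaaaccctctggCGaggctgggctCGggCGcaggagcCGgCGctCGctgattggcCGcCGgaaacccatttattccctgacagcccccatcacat
The next is the summit over the coding exon of *Neurog2*, chr3:127634188-127634387, which was placed nearer the top in positive cells.
*Neurog2* coding exon: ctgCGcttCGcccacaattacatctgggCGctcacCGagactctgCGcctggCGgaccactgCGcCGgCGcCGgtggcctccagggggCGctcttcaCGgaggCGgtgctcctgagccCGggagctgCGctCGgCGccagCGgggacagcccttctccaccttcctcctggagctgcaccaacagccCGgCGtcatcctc
The best placed element of all 6 loci lay downstream of *Neurog2*, at chr3:127639926-127640125, and was open in every library.
*Neurog2* downstream, near: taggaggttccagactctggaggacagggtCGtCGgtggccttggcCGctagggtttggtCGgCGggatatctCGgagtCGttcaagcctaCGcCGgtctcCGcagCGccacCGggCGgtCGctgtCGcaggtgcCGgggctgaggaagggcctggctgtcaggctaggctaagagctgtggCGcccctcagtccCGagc
A further element downstream of *Neurog2*, at chr3:127653264-127653463, was found almost only in sort-negative libraries.
*Neurog2* downstream, far: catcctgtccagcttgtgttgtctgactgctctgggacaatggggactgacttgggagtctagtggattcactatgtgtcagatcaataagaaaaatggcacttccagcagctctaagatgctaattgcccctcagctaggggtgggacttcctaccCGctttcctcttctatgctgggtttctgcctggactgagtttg
The element upstream of *Olig2*, at chr16:91192710-91192909, had no deposited peak in any positive library.
*Olig2* upstream: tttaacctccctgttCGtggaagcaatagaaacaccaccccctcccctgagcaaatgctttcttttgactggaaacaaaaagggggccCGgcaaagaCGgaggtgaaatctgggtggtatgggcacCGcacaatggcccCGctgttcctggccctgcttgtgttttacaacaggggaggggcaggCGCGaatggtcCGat
The most upstream of the *Pax6* promoters, chr2:105668731-105668895, was placed in the 4 positive libraries only. A sort-negative library also had a peak there, beyond the length to which lists were read.
*Pax6* upstream promoter: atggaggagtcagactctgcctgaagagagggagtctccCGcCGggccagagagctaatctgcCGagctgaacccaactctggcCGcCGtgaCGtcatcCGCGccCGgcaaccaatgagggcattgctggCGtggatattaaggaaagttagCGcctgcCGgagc
An intronic promoter element of *Egr2*, chr10:67536039-67536238, differed in opposite directions in the mouse lines.
*Egr2* intronic promoter: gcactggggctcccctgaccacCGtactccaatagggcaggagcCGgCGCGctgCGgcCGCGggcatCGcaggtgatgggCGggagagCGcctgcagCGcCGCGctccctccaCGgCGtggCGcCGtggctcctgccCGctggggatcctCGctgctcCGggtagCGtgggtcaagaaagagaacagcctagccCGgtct

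The printed stretches differ in their CpGs. The *Sox2* promoter held 23, the *Egr2* intronic promoter 22, the *Neurog2* coding exon 20 and the near downstream element of *Neurog2* 18. The *Pax6* upstream promoter held 12, the *Olig2* upstream element 8 and the far downstream element of *Neurog2* 1. In 200-bp windows around the summits, the ratio of observed to expected CpGs was 0.861 at the *Sox2* promoter and 0.0801 at the far downstream element of *Neurog2*. The median of that ratio was 0.405 over the 120 elements of the 6 loci and 0.206 over all elements. Repeat-masked sequence filled most of the window in 7.5% of the elements at the loci and in 20.9% of all elements. The CpG ratio of the promoter windows of the 6 genes, from 1000 bp upstream to 100 bp downstream of each TSS, lay between 0.508 at 1 TSS of *Egr2* and 0.799 at *Sox1*, against a median of 0.441 over 26242 windows of coding genes.

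Short motifs were searched on both strands of the same 200-bp windows. Matches to AACAAT, letters bound by SOX factors, were present in 3.33% of the elements at the loci and in 6.19% of all elements. CAGATG, an E-box bound by neurogenins, was present in 10.8% and 16.7%, and CATATG, an E-box bound by Olig factors, in 0.833% and 4.03%. GTGGGCG, bound by EGR factors, was present in 5% of the elements at the loci, 6 of 120, and in 2.47% of all elements. The other motifs were TGATNNAT (HOX with PBX; 3.33% and 6.35%), TGACAG (MEIS; 15.8% and 15.5%), AGGTCA (nuclear receptor half-site; 10.8% and 13.6%) and GGAATG (TEAD; 5.83% and 11.1%). The last was AGATAA, whose letters are bound by blood and heart factors of the GATA family, in 4.17% and 6.58%. Matches of different motifs may share bases. The printed *Neurog2* coding exon held 1 EGR match and 1 neurogenin E-box match, and the near downstream element of *Neurog2* and the *Sox2* promoter held 1 MEIS match each. These counts describe letters and were not tested.

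All 6 genes had an accessible promoter in most libraries. A promoter peak with a q-value of at most 0.01 was found in all 7 libraries for *Sox1*, *Pax6*, *Egr2* and *Neurog2*, in 6 for *Sox2* and in 5 for *Olig2*. Such a peak in all 7 libraries was found for 53.1% of the 21000 coding genes. The promoters nonetheless lay below the middle of all coding promoters, whose median position was 15565. Between 61.8% (*Egr2*) and 85.9% (*Olig2*) of the 15060 coding promoters with an element were placed nearer the top, by the median over libraries. The order by that median position was *Egr2* (20537), *Sox1* (25401), *Sox2* (25633), *Pax6* (29974), *Neurog2* (43984) and *Olig2* (67102). Neighbours in this order had ranges over the 7 libraries that overlapped.

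By the best placed promoter peak of each gene, *Sox2* alone among the 6 genes had positive and sort-negative libraries that did not overlap. Its element, chr3:34649297-34650092, spans the TSS in the 5′ UTR and lies within the non-coding *Sox2ot* gene. It stood at positions 47613 and 89180 in GFP+ cells, 93719 and 25633 in Tomato+ cells, 16804 and 22342 in GFP- cells and 19856 in Tomato- cells. All 3 sort-negative libraries were thus above all 4 positive ones, although Tomato+ replicate 8 came close to GFP- replicate 2. The fold enrichment was 3.47 and 2.86 in GFP+, 3.08 and 4.26 in Tomato+, 5.07 and 4.49 in GFP- and 4.80 in Tomato- cells. The −log10 q-value ran from 1.85 to 6.32 in positive and from 7.36 to 12.4 in sort-negative libraries. The geometric mean position was 2.89-fold further down in positive than in sort-negative libraries, a difference of 0.461 in mean log10 position (SD 0.265, n = 4, and 0.0622, n = 3; exact permutation p = 0.0571, the smallest possible). The difference was 0.527 within the Hoxb1-GFP line and 0.392 within the Mef2c-Cre line, and 0.388 without Tomato+ replicate 6. Their shared direction and lack of overlap follow from the order over all libraries and are no further support. Of the 15060 coding promoters, 2.24% were placed above in every sort-negative library and 2.52% in every positive library.

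A second element in the *Sox2* promoter window, at chr3:34648705-34649079 with its summit 1138 bp upstream of the TSS, followed the same order at a lower level. It was at 83199, 69091 and 69823 in the sort-negative libraries and at 121556 in Tomato+ replicate 8, and was not placed in the other 3 positive libraries. This second element had a q-value of at most 0.01 in 3 libraries and, among positive ones, was placed in Tomato+ replicate 8 alone. It is therefore not separate support for the order at the first element. Within the coding exon, by contrast, the element at chr3:34650740-34651381 overlapped between groups, at 37819, 45140, 25345 and 126627 in positive and 59533, 132092 and 35564 in sort-negative libraries (exact permutation p = 0.571).

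The best placed promoter peaks of the other 5 genes overlapped between positive and sort-negative libraries. The best placed peak was taken in each library, so its site could differ between libraries at genes with several promoter elements. At *Pax6*, the 46941 of GFP+ replicate 4 lay at the most upstream promoter element, described below. Sites also differed between libraries at *Neurog2*. *Pax6* stood at 37347 and 46941 in GFP+, 25631 and 76453 in Tomato+, 29974 and 19498 in GFP- and 25681 in Tomato- cells (difference 0.242 in mean log10 position, exact permutation p = 0.171, and 0.159 without Tomato+ replicate 8). *Olig2* stood at 122332 and 129313 in GFP+, 41594 and 89368 in Tomato+, 43607 and 67102 in GFP- and 55339 in Tomato- cells (0.206, exact permutation p = 0.229, and 0.314 without Tomato+ replicate 6). The *Olig2* promoter, at chr16:91225197-91225545, was lowest in both GFP+ libraries, while the Tomato+ libraries lay on either side of Tomato- cells.

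*Neurog2* stood at 44660 and 27012 in GFP+, 62952 and 57794 in Tomato+, 19712 and 43984 in GFP- and 35375 in Tomato- cells (0.165, exact permutation p = 0.229, and 0.0646 without GFP- replicate 1). *Egr2* was the most even gene outside Tomato+ replicate 6, at 21342 and 23469 in GFP+, 54454 and 17945 in Tomato+, 19700 and 20537 in GFP- and 19952 in Tomato- cells (0.12, exact permutation p = 0.4, and 0.0156 without Tomato+ replicate 6). *Sox1* had nearly equal means in both groups, at 29273 and 17281 in GFP+, 25965 and 25401 in Tomato+, 29204 and 25129 in GFP- and 17876 in Tomato- cells (0.00819, exact permutation p = 0.971). The mean log10 position was larger, that is further down, in positive libraries for all 6 genes, by almost nothing for *Sox1*, whose sign turned when GFP+ replicate 3 (-0.0204), Tomato+ replicate 6 (-0.003) or Tomato- replicate 7 (-0.052) was left out. Over all coding promoters 48.7% were placed nearer the top in sort-negative libraries, and the median difference was -0.00444.

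**Figure D1:**
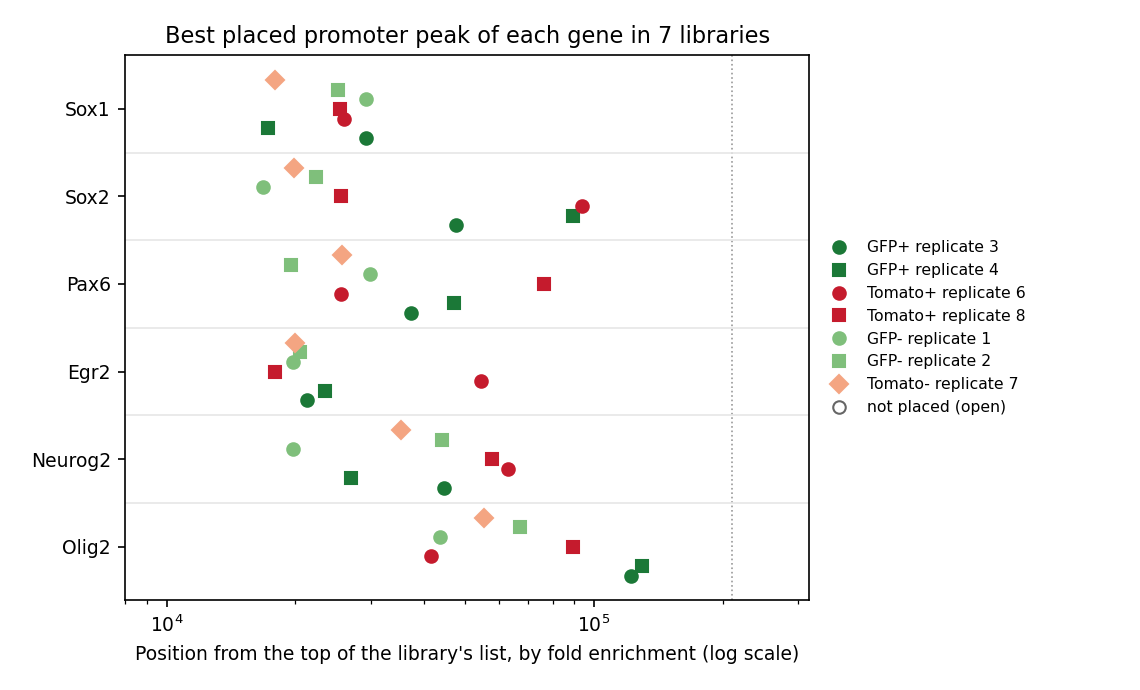
Position of the best placed promoter peak of each gene in the 7 libraries (log axis, the peak with the highest fold enrichment at 1, to the left), with 1 point per library, colours for sorts and no averaging. For *Sox2* the 3 sort-negative points (16804 to 22342) lie to the left of the 4 positive points (25633 to 93719), whereas the groups overlap for the other 5 genes.

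*Pax6* has several promoters, and they did not move together. Of its 5 promoter elements, the one in an intron at chr2:105675041-105675729 had a peak in all 7 libraries (q at most 0.01) and overlapped between groups. The most upstream element, at chr2:105668633-105668899, was at 115693 and 46941 in GFP+ and at 186149 and 154734 in Tomato+ cells and was not placed in any sort-negative library. It had a deposited peak in 5 libraries, so a sort-negative library also had one, beyond the length to which lists were read. The Tomato+ position 186149 was close to that length, 187914. All 4 positive libraries were thus above the 3 sort-negative ones, but only GFP+ replicate 4 had a q-value of at most 0.01 there, and the difference was -0.407 within the Hoxb1-GFP line and -0.0442 within the Mef2c-Cre line. A further promoter element, at chr2:105676070-105676769, was at 26107 in Tomato+ replicate 6 and between 121612 and 177173 in the other 5 libraries in which it was placed.

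At *Egr2*, 4 promoter elements were found at its 6 annotated start sites. The best placed, at chr10:67537420-67537935, gave the values above. The intronic element at chr10:67535987-67536477 had a peak in all 7 libraries (q at most 0.01), at 28252 and 38246 in GFP+ against 110191 and 48560 in GFP- cells, and at 93084 and 79394 in Tomato+ against 25360 in Tomato- cells. In the Hoxb1-GFP line the positive libraries were nearer the top, and in the Mef2c-Cre line the sort-negative library was. Pooled over lines the means differed by 0.0147.

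The number of peaks at the loci overlapped between the groups at 5 of the 6 genes. At *Sox1*, 8, 8, 8 and 9 peaks with a q-value of at most 0.01 were found in the positive libraries and 10, 12 and 11 in the sort-negative ones (8.25 ± 0.5, SD, n = 4, and 11 ± 1, SD, n = 3; exact permutation p = 0.0571, the smallest possible). More peaks in every sort-negative library were found in 1.27% of the 21000 coding gene windows, and more in every positive library in 0.943%. The length covered by these *Sox1* peaks overlapped between the groups, from 1491 to 3220 bp in positive and from 3139 to 4278 bp in sort-negative libraries. With all deposited peaks the *Sox1* difference was 0.5 peaks in the opposite direction.

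At *Neurog2* 8, 8, 5 and 6 peaks were found in positive and 8, 7 and 13 in sort-negative libraries (exact permutation p = 0.343), and the mean difference of -2.58 was -0.75 without Tomato- replicate 7. At *Olig2* the numbers were 3, 6, 4 and 8 against 5, 9 and 10 (exact permutation p = 0.229). Tomato- cells had the highest number at both of these genes. *Pax6* had 9, 7, 11 and 6 against 12, 8 and 9, *Sox2* 6, 7, 4 and 6 against 5, 6 and 7, and *Egr2*, alone with a higher mean in positive cells, 7, 8, 4 and 5 against 4, 5 and 5 (exact permutation p from 0.514 to 1). The median over all coding gene windows was 6.25 peaks in positive and 6.33 in sort-negative libraries.

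**Figure D2:**
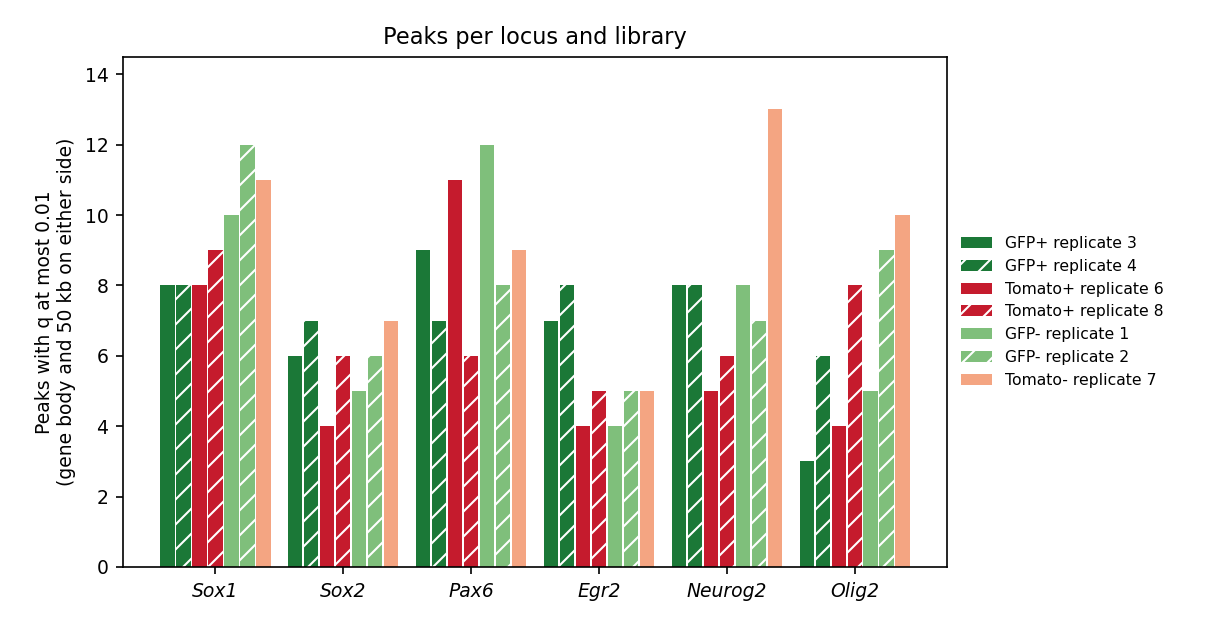
Number of peaks with a q-value of at most 0.01 (vertical axis, from 0) from 50 kb upstream to 50 kb downstream of each gene, with 1 bar per library. At *Sox1* the 3 sort-negative bars (10 to 12) are above the 4 positive bars (8 to 9), while bars of the groups interleave at the other 5 genes.

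Of the 120 elements, 15 lay in promoters of the 6 genes, 7 in promoters of other genes (*Sox1ot*, *Mir1897*, *Paupar*, *Ado* and *Olig1*) and 98 were distal. A peak with a q-value of at most 0.01 was found in all 7 libraries at 11 elements (9.17%) and in 1 library alone at 71 (59.2%), against 11.2% and 65.8% of all elements. The 4 positive libraries were placed above the 3 sort-negative ones at 3 elements (2.5%; 0.832% of all elements), and the reverse held at 6 (5%; 1.36% of all elements). Among the 35 elements at the loci with a peak of q at most 0.01 in 3 or more libraries, these numbers were 2 and 4, against 2.54% and 3.12% of the 50862 such elements in the genome. The median difference in mean log10 position was 0.0139 at the loci and -0.028 over all elements. Elements of 1 locus share their surroundings and were not treated as replicates, and the count of 6 fell to 1 when elements lacking a peak in any library were left out.

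*Neurog2* held 4 of these 9 elements and the best placed element of all. The near downstream element, at chr3:127639794-127640413 and 6890 bp from the TSS between genes, stood at 8620 and 10415 in GFP+, 6142 and 12545 in Tomato+, 5765 and 5867 in GFP- and 12628 in Tomato- cells. Its fold enrichment was between 6.27 and 8.63. It was thus prominent in every sort, and the groups overlapped (exact permutation p = 0.514).

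The element over the *Neurog2* coding exon, chr3:127633816-127634793, stood at 9715 and 13616 in GFP+, 11890 and 14753 in Tomato+, 25209 and 16653 in GFP- and 25140 in Tomato- cells. The 4 positive libraries were above the 3 sort-negative ones, the reverse of the order at the *Sox2* promoter. Fold enrichment was 5.80 to 6.98 in positive and 4.14 to 5.21 in sort-negative libraries, and the difference in mean log10 position was -0.25 (exact permutation p = 0.0571). It was -0.251 within the Hoxb1-GFP line and -0.278 within the Mef2c-Cre line, where the direction follows from the order over all libraries. The order rested on fold enrichment, because the −log10 q-value overlapped, from 10.5 to 17.2 in positive and from 8.2 to 14.8 in sort-negative libraries. The *Neurog2* promoter elements, directly upstream of and over the TSS, overlapped between groups.

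The far downstream element of *Neurog2*, chr3:127653135-127653512, lay between genes 20228 bp from the TSS. It stood at 13017 and 30990 in GFP- and 37459 in Tomato- cells, with fold enrichments of 5.79, 3.80 and 3.45. Among positive libraries it had a peak in Tomato+ replicate 8 alone, at 59508 with a −log10 q-value of 1.76. It reached a q-value of 0.01 only in the 3 sort-negative libraries, through which it was included, so no test is given. Weaker elements at chr3:127626247-127626403 and chr3:127627932-127628104, upstream of the gene, had peaks in the sort-negative libraries alone, at positions from 93667 to 185074, and reached a q-value of 0.01 only in Tomato- cells.

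At *Olig2* the element at chr16:91192683-91193352, 32740 bp upstream of the TSS within the predicted gene *Gm41492*, separated the groups and was included only through its peaks in the sort-negative libraries, so no test is given. It stood at 27972 and 22715 in GFP- and 52734 in Tomato- cells, with fold enrichments of 4.01, 4.41 and 3.13 and −log10 q-values between 2.91 and 6.62. None of the 4 positive libraries had a deposited peak there, which makes it the only 1 of the 120 elements with a q-value of at most 0.01 in all 3 sort-negative libraries and no peak at all in positive ones. An element 5245 bp upstream of *Olig2* ran the other way without separating the groups, at 62995 in GFP+ replicate 4, 41402 and 58846 in Tomato+ and 154350 in Tomato- cells and not placed in the other 3 libraries (exact permutation p = 0.229).

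The *Olig2* window also holds the related gene *Olig1*, whose promoter element at chr16:91269538-91270760 was above in all positive libraries. It stood at 25649 and 27166 in GFP+, 19385 and 24471 in Tomato+, 53166 and 48323 in GFP- and 65412 in Tomato- cells. The difference in mean log10 position was -0.362. This promoter was named because its groups did not overlap, so no test is given. Among all coding promoters, 2.52% had every positive library above. The *Olig2* promoter overlapped between groups, and a difference between these neighbouring genes was not tested.

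**Figure D3:**
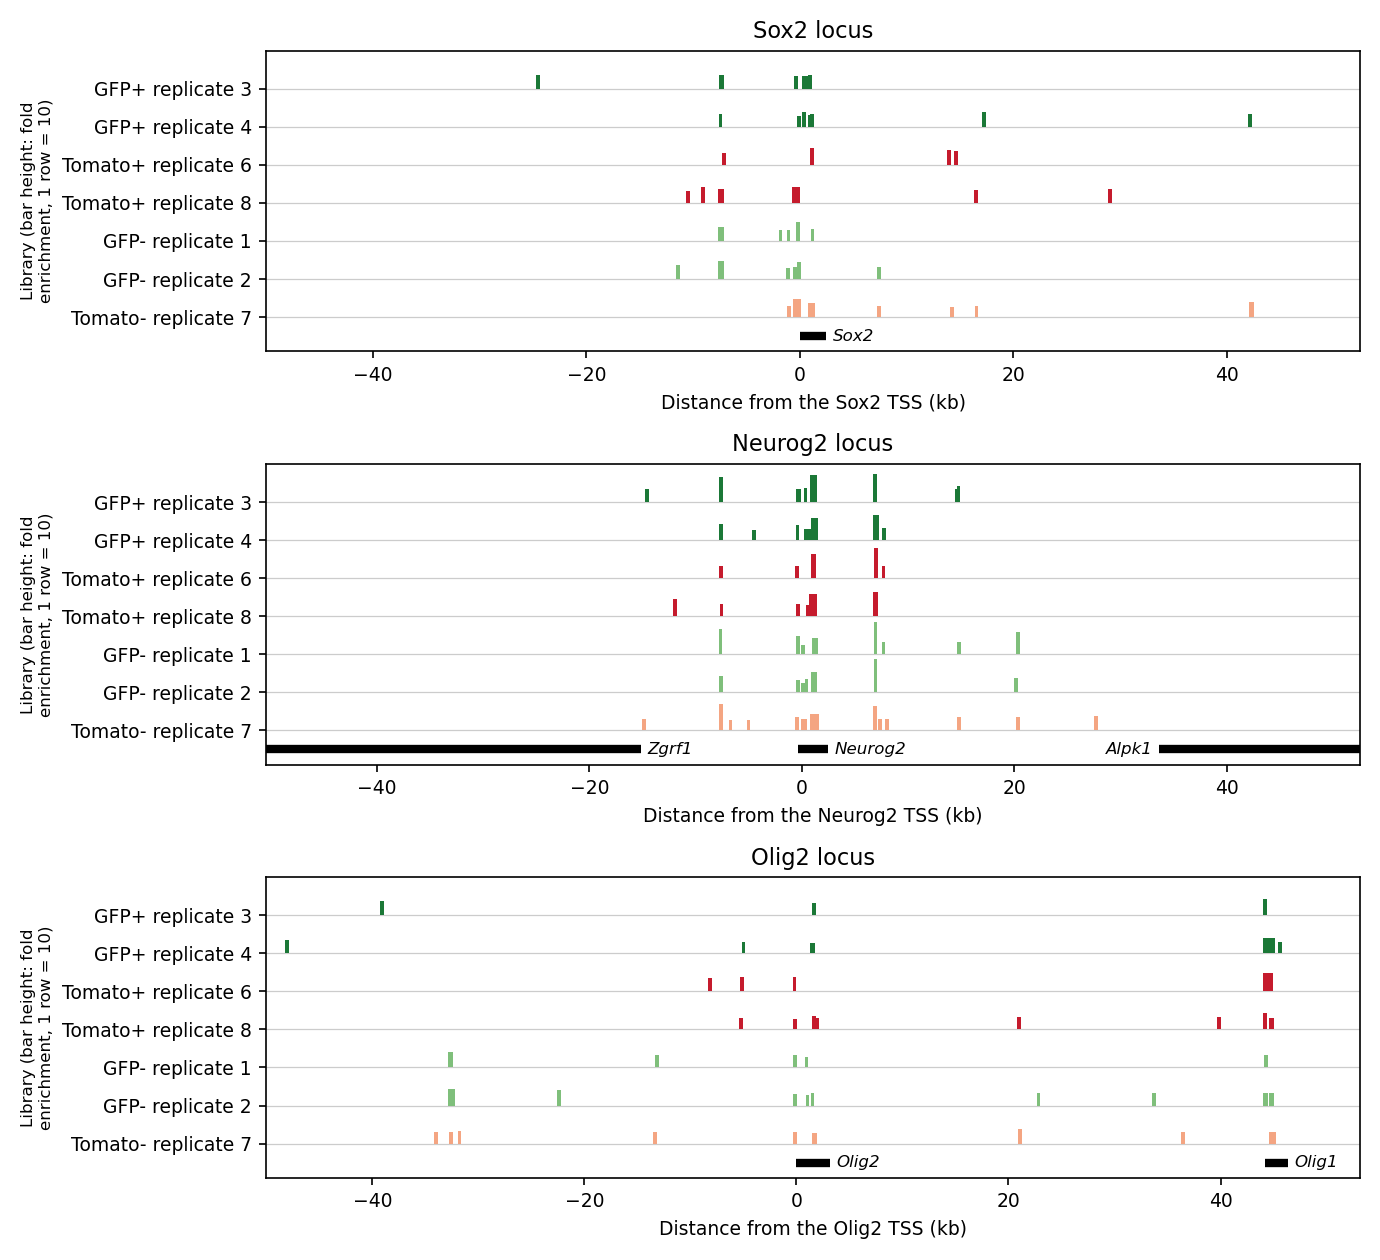
Peaks with a q-value of at most 0.01 in each library at *Sox2*, *Neurog2* and *Olig2*, against distance from the TSS in kb, with bar height giving fold enrichment (1 row of the axis equals a fold enrichment of 10), black bars the coding genes and narrow peaks widened to be visible. Bars 20.2 kb downstream of the *Neurog2* TSS and 32.7 kb upstream of that of *Olig2* appear in the 3 sort-negative libraries and in none of the 4 positive ones.

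**Figure D4:**
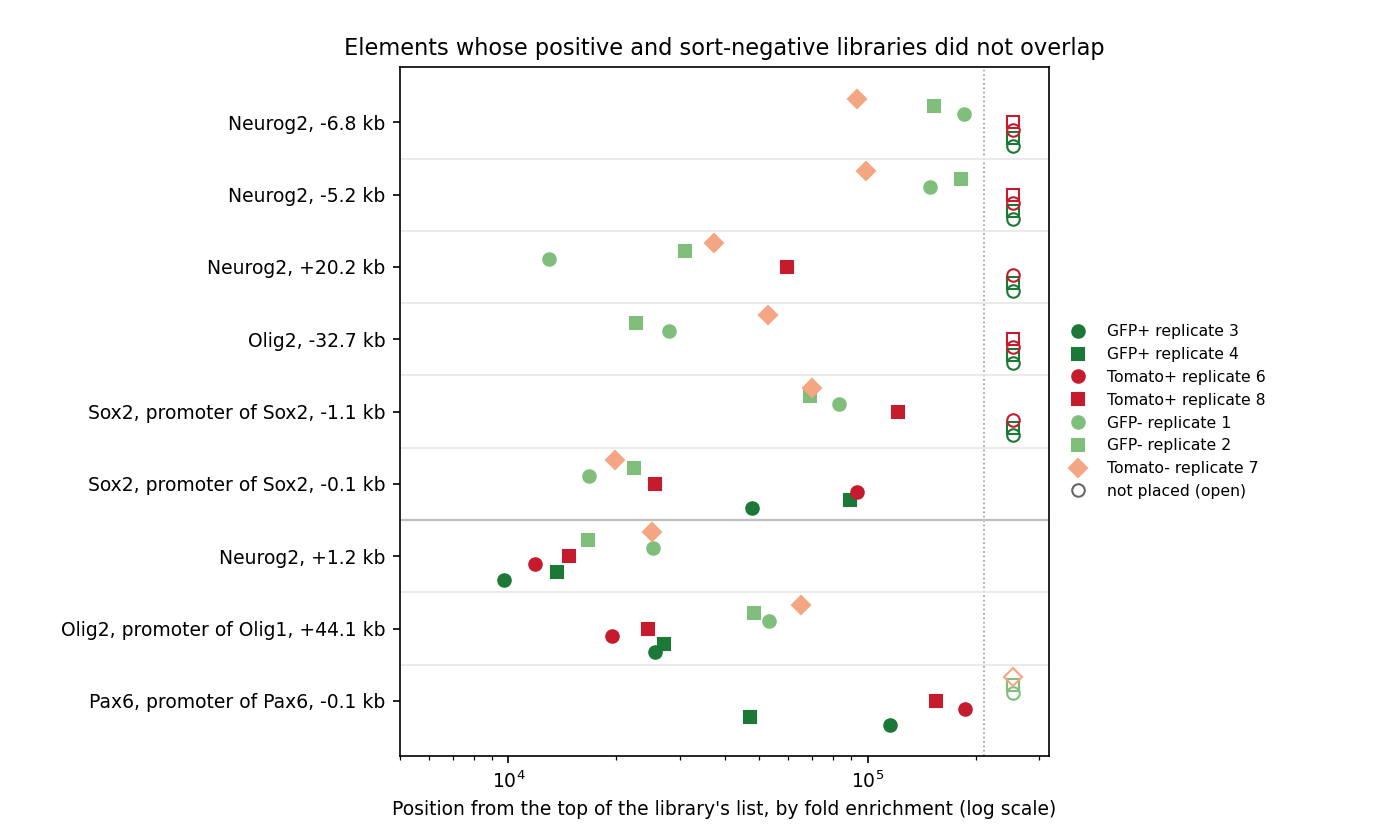
Position in each library's list (log axis) of the 9 elements whose 4 positive and 3 sort-negative libraries did not overlap, named by locus and distance of the summit from the first TSS, with open points for libraries in which the element was not placed. Above the line are the 6 elements with the sort-negative libraries nearer the top, and below it the 3 with the positive libraries nearer the top.

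At *Sox1*, *Sox2*, *Pax6* and *Egr2* no distal element separated the groups. The best placed distal elements were at chr8:12391562-12391991 and chr8:12429983-12431277 for *Sox1*, both in *Sox1ot*, with a median position of 34488 and 31449. For *Sox2* the best placed were the coding exon element and one in a *Sox2ot* intron at chr3:34642302-34642900 (median position 39438). For *Pax6* they were at chr2:105660679-105661232 (62554), in an exon of the non-coding RNA *Paupar*, and at chr2:105689666-105690211 (47500), in an intron of *Pax6*. The *Egr2* locus held 7 distal elements, of which 6 had a deposited peak in 1 library and the other in 4, so that their median positions were tied at not placed and its best placed elements lay at the promoters.

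The other neural genes were read from a list of 32 genes of the neural tube and hindbrain. Of these, 27 had a promoter element, and 8 (25%) had a promoter peak with a q-value of at most 0.01 in all 7 libraries, against 53.1% of the 21000 coding genes and 4 of the 6 members. The positive libraries were placed above at 3 promoters, those of *Sox21*, *Pax7* and *Olig1*, and the sort-negative libraries at 2, those of *Dbx1* and *Dbx2*, which encode homeobox factors of ventral interneuron progenitors. Over all coding promoters these shares were 2.52% and 2.24%. The *Olig1* promoter is the element already counted in the *Olig2* window, so it is not a further case. The *Dbx1* promoter was weak, with a q-value of at most 0.01 in 1 library. It stood at 109739 and 45517 in GFP- and 70052 in Tomato- cells, and among positive libraries was placed in GFP+ replicate 4 alone, at 150909. *Dbx2* stood at 36438 and 30888 in GFP+, 26059 and 27583 in Tomato+, 19870 and 17943 in GFP- and 21106 in Tomato- cells. *Pax7*, a dorsal neural tube and muscle progenitor gene, stood at 36671 and 91557 in GFP+, 84436 and 29383 in Tomato+, 149143 and 134938 in GFP- and 123546 in Tomato- cells. *Sox21*, a Sox gene of neural progenitors, stood at 22819 to 33860 in positive and 34423 to 54126 in sort-negative libraries. The median difference over the 27 promoters was 0.0362, against 0.185 over the 6 members, and the list thus held promoters placed above in either direction.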

How the data were processed

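The 7 ATAC-seq libraries were sorted GFP+, GFP-, Tomato+ and Tomato- cells of E9.5 embryos. Reads were mapped by the authors to GRCm38 (SNAP), filtered for duplicates, improper pairs and blacklisted regions, and used for narrow peak calls per library without pooling replicates (MACS2 2.1.1 per the labels). The header kept for 1 library gives a p limit of 0.01, no control, a shift of 37 bp and an extension to 73 bp, which offsets peaks from the transposase cut site. The authors deposited for each summit the pileup, a coverage signal not scaled to depth and not used in a comparison, the fold enrichment, a ratio to local background, and the −log10 p-value and −log10 q-value, which grow with depth. Read counts over a shared set of regions were not used here, so no count model was run. Several summits of a peak were reduced to the one with the smallest p.

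Elements were unions of peaks with q at most 0.01, and a library's peak belonged to an element when they shared at least 1 bp. Promoters ran from 1000 bp upstream to 100 bp downstream of curated RefSeq start sites (GRCm38.p6). Tests were two-sided exact permutation tests on log10 position or on peak numbers, without a mouse-line term, and values within each line stand beside the results. The genes, lists, tests and alternatives were chosen with earlier results of these data known. Named were the 6 genes, their promoter elements, the 2 best placed distal elements per locus, up to 4 distal elements per locus whose groups did not overlap, and genes of the neural list whose groups did not overlap. Alternatives were ranking by −log10 q, elements with a peak in all 7 libraries, elements of the 30000 strongest peaks or of q at most 0.0001, 50% overlap, promoters of 500 bp around the TSS in each direction, flanks of 20 kb and 100 kb, all deposited peaks and leaving out each library. Reading each list whole was the first way tried and was replaced, after seeing the data, by the common length, because absent peaks otherwise took the order of list lengths. Scripts were tested on simulated data. Python 3.11.15, numpy 2.4.6, pandas 2.3.3 and matplotlib 3.10.9 were used.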

Additional observations from a re-analysis of the deposited data

Results flagged for a closer look

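At 4 of the 31 elements named by the rule, the only ones looked at for this, every positive library of one mouse line moved one way and every positive library of the other line the opposite way against its sort-negative cells. These differences between the lines were not tested, and the Mef2c-Cre line has 1 sort-negative library. The share of all elements with such opposite orders was not computed. With so few libraries per line, the count of 4 therefore cannot be read as a result. Differences are in mean log10 position, positive minus sort-negative. At the intronic *Egr2* promoter element they were -0.347 in the Hoxb1-GFP and 0.53 in the Mef2c-Cre line, apart by -0.878. At the *Sox1* element at chr8:12429983-12431277 they were 0.213 and -0.469, apart by 0.682. At the *Sox2* element at chr3:34642302-34642900 they were 0.205 and -0.222, apart by 0.428. At the near downstream element of *Neurog2* they were 0.212 and -0.158, apart by 0.37. At these 4 elements the pooled means average over lines whose values went in opposite directions.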

How the results depend on the processing

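Counted over the 6 genes together, the promoter differences kept their direction in 40 of 40 values from alternatives that left no library out. Many of these values were unchanged from the main setting. The *Olig2* promoter has no value with elements of q at most 0.0001 or of the 30000 strongest peaks. With each library left out, the promoter difference ran from 0.388 to 0.576 for *Sox2*, from -0.052 to 0.0559 for *Sox1*, from 0.159 to 0.317 for *Pax6* (lowest without Tomato+ replicate 8), from 0.0156 to 0.176 for *Egr2* (lowest without Tomato+ replicate 6), from 0.0646 to 0.241 for *Neurog2* (lowest without GFP- replicate 1) and from 0.149 to 0.314 for *Olig2* (highest without Tomato+ replicate 6). The number of elements with the sort-negative libraries above, 6, became 1 with elements that had a peak in all 7 libraries, 3 with the 30000 strongest peaks, 3 with q at most 0.0001 and 16 with each list read whole, an alternative added after seeing the data. Leaving out 1 library gave 3 to 5 elements with the positive libraries above (5 without GFP+ replicate 3) and 7 to 13 with the sort-negative above (13 without GFP- replicate 2 and 10 without Tomato- replicate 7), and fewer libraries overlap less easily. Ranked by −log10 q, 8 of the 9 elements were kept, and the *Neurog2* coding exon was not. The *Sox2* promoter and the *Olig1* promoter were kept under all 6 settings compared. The difference in peak number turned with all deposited peaks at *Sox1* (0.5), *Sox2* (1.08) and *Pax6* (0.417), and at *Olig2* with q at most 0.0001 (0.167) and with the 30000 strongest peaks (0.833). Without 1 library it ran from -0.75 to 0.333 at *Sox2* (0.333 without Tomato+ replicate 6 and 0.25 without Tomato- replicate 7), from -3.25 to -2.25 at *Sox1*, from -2.33 to -0.25 at *Pax6* (-2.33 without Tomato+ replicate 6, -2.25 without GFP- replicate 2, -0.667 without Tomato+ replicate 8 and -0.25 without GFP- replicate 1), from -3.75 to -0.75 at *Neurog2* (-0.75 without Tomato- replicate 7), from -4.25 to -1.75 at *Olig2* (-4.25 without GFP- replicate 1 and -1.75 without Tomato- replicate 7) and from 0.667 to 2 at *Egr2* (0.667 without GFP+ replicate 4 and 2 without Tomato+ replicate 6). Promoters of the neural list with a peak in every library were 8, 19 with all deposited peaks and 8 to 11 without 1 library. Those with positive libraries above were then 3 to 5 (5 without Tomato- replicate 7) and those with sort-negative libraries above 2 to 5 (5 without GFP- replicate 2). The causes were not tested. No paired analysis was run, because the labels do not say which libraries, if any, came from the same sort. With 4 against 3 libraries no exact p can fall below 0.0571, and depth was not available as read counts per element.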

Other observations

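An element upstream of *Neurog2*, chr3:127625307-127625687, was chosen after its values were seen. It lay between genes 7686 bp from the TSS and had a peak with a q-value of at most 0.01 in all 7 libraries. It stood at 10776 and 23588 in GFP+, 10431 and 25014 in GFP- and 10975 in Tomato- cells, and at 85427 and 58171 in Tomato+ cells. The Tomato+ libraries were thus the lowest, with fold enrichments of 3.22 and 3.16 against 4.27 to 6.83 in the other 5 libraries.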
